A study of Macaca fascicularis with 2 samples.

Results

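Notochordal cells (NCs) of the nucleus pulposus (NP) that carried transcripts of a muscarinic acetylcholine receptor were examined in 1 scRNA-seq library of cynomolgus monkey cartilage and disc. An NC was taken as a tagged cell with 5 or more reads of both *KRT19*, a keratin of NCs, and *TBXT*, the notochord transcription factor brachyury. Receptor-positive NCs were those with 5 or more reads of *CHRM2* or of *CHRM3*. By this rule 310 of 5674 tagged cells were NCs, and 125 of the 310 NCs were receptor-positive. A further 153 NCs had 0 reads of both receptors and served as the comparison, here called receptor-zero NCs. The remaining 32 NCs had 1 to 4 reads of a receptor and were kept apart. The cells were thus chosen by their reads of these 4 genes, whose values are a description of that choice and carry no test.

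The library pooled articular cartilage (AC) and NP cells of wild type male *Macaca fascicularis* aged 3 years, and its label lists AC3, NP3 and AC4, which are 3 tissue samples numbered for 2 animals. The cells were freed by enzyme digestion, bound to 1 of 4 tags (A951 to A954), sorted alive and sequenced together by TAS-seq, in which cDNA captured on barcoded beads is amplified. No source used here pairs a tag with a tissue or an animal, so the tags are neither tissues nor replicates and the library counts as 1 sample. No p-value is therefore given. Tag A952 held 236 NCs and A951 held 67, whereas A953 held 5 and A954 held 2. The values were whole reads per gene and cell with PCR copies kept, and levels are pooled reads per 1000000 reads (rpm). Intervals are 95% exact binomial intervals for shares and exact Poisson intervals for levels, and both cover counting error only. An rpm value is not corrected for gene length, so levels were compared between groups of cells and not between genes.

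Muscarinic receptors are G protein-coupled receptors for acetylcholine. CHRM3 acts mainly through Gq, phospholipase C and release of stored calcium, whereas CHRM2 acts mainly through Gi, which restrains adenylyl cyclase and whose beta-gamma subunits open GIRK potassium channels. Both are best known in smooth muscle, heart, glands and neurons. NCs are the vacuolated cells left from the embryonic notochord, which lie in the NP of young discs beside chondrocyte-like cells and secrete sonic hedgehog (SHH).

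Several notochordal markers that the rule did not use were found far more often in these cells than in others, while some were not. *NCAM1*, a neural cell adhesion molecule of notochordal tissue, had 5 or more reads in 88.0% of the 125 receptor-positive NCs (81.0 to 93.1) and 70.6% of the 153 receptor-zero NCs (62.7 to 77.7), against 9.28% of the 5364 other tagged cells. N-cadherin *CDH2* reached 52.8% (43.7 to 61.8), 35.9% (28.4 to 44.1) and 0.336% in the same order. *SHH* was found in 23.2% of receptor-positive NCs (16.1 to 31.6), 22.9% of receptor-zero NCs (16.5 to 30.4) and 0.205% of other cells. *APOE*, an apolipoprotein of NCs, had a median of 11412 rpm per receptor-positive NC and 10331 rpm per receptor-zero NC, against 9.30 rpm in other cells. *FOXA2* and *NOTO*, factors of the early notochord, had 5 or more reads in 0 receptor-positive NCs. *FOXA2* was found in 1 of 153 receptor-zero NCs and 2.26% of other cells, which goes against the label. The genes *KRT8*, *KRT18*, *CD24* and *FOXA1* were not among the genes counted.

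Genes of cartilage cells were read in NCs at various levels. *COL2A1*, type II collagen, had 5 or more reads in each of the 125 receptor-positive NCs, but its median was 437 rpm per receptor-positive NC and 409.7 rpm per receptor-zero NC, against 17794 rpm per other cell. *PRG4*, the joint lubricant lubricin, had medians of 171, 174 and 5297 rpm in the same order. Single receptor-positive NCs reached 19723 rpm of *COL2A1* and 24115 rpm of *PRG4*, so pooled levels of these genes rest in part on a few cells. Aggrecan *ACAN*, by contrast, was higher in NCs, at 13786 rpm in receptor-positive and 15156 rpm in receptor-zero NCs against 3967 rpm in other cells. Detection of *COL2A1* or *PRG4* in an NC was not read as expression.

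Markers of smooth muscle and neurons, which are among the cell types best known for muscarinic receptors, were at low levels in receptor-positive NCs. Their summed levels were higher in receptor-zero NCs, and both groups had higher sums than other tagged cells, though not for every gene. Heart and gland markers were not examined. The smooth muscle genes *MYH11*, *DES* and *CNN1* had 5 or more reads in 0 of 125 receptor-positive and 0 of 153 receptor-zero NCs. Among other tagged cells they did so in 44, 63 and 0 cells. Over the 5 smooth muscle and pericyte markers counted, the summed level was 64.1 rpm in receptor-positive NCs, 102 rpm in receptor-zero NCs and 14.8 rpm in other cells, and the gene with most reads was *ACTA2*, smooth muscle actin, at 58.6 and 89.1 rpm. At least 1 of these 5 markers had 5 or more reads in 15 of 125 receptor-positive and 29 of 153 receptor-zero NCs. The 6 neuron and Schwann cell markers summed to 12.1, 18.7 and 4.28 rpm in the same order, and the one with most reads, *SNAP25* of synaptic vesicle release, had 5 or more reads in 9 receptor-positive NCs, 13 receptor-zero NCs and 1 other cell. Skeletal muscle markers (4 counted, 32.9, 27.1 and 2.45 rpm), endothelial markers (4 counted, 3.50, 2.76 and 2.60 rpm) and immune markers (5 counted, 20.9, 35.5 and 23.0 rpm) were also low in NCs. E-cadherin *CDH1*, the leading epithelial marker, was found in 16.8% of receptor-positive NCs, 9.80% of receptor-zero NCs and 0.186% of other cells. The part of such cells in the results below was not tested.

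*CHRM2* was positive in 68 of 310 NCs (21.9%, 17.5 to 27.0) and *CHRM3* in 66 (21.3%, 16.9 to 26.3). Together the receptor-positive NCs made up 40.3% of NCs (34.8 to 46.0), with 59 cells positive for *CHRM2* only, 57 for *CHRM3* only and 9 for both. The share was 40.3% in A951 (27 of 67, 28.5 to 53.0) and 39.4% in A952 (93 of 236, 33.1 to 46.0), so the tags with most NCs differed by less than their counting error. In A953 and A954, 4 of 5 and 1 of 2 NCs were receptor-positive. A *CHRM2*-positive NC held between 5 and 290 reads of the gene (median 32.5), and a *CHRM3*-positive NC between 5 and 253 (median 35.5). As rpm the ranges were 15.9 to 998 (median 145) for *CHRM2* and 15.6 to 1703 (median 164) for *CHRM3*. Counts near the threshold were spread without a gap. The larger of the receptor counts was 3 reads in 8 NCs and 4 reads in 7 NCs just outside the rule, and 5 reads in 10 NCs and 6 reads in 5 NCs just inside it.

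**Figure D1:**
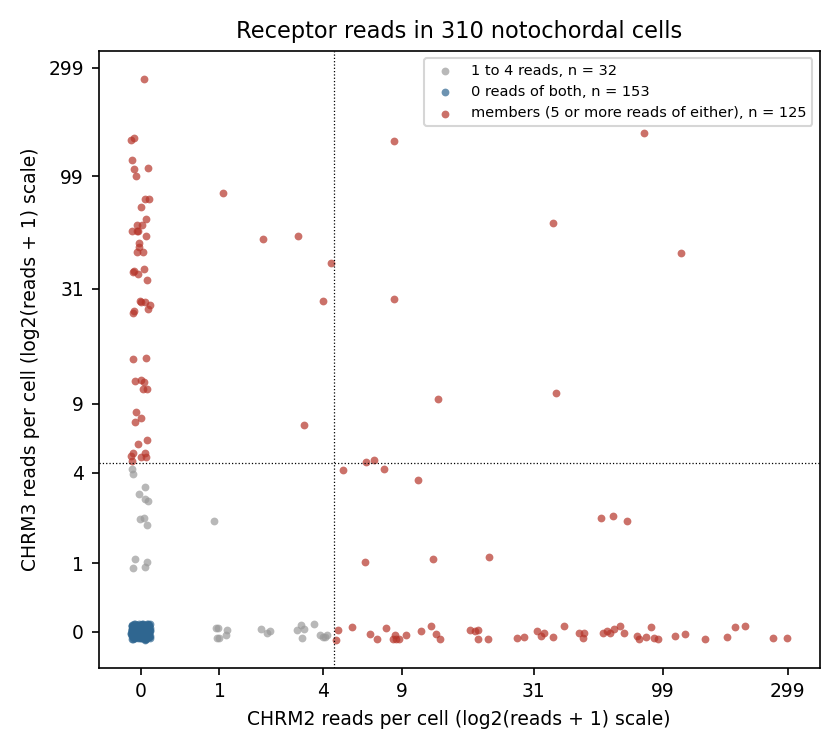
Reads of *CHRM2* (x axis) and *CHRM3* (y axis) in each of 310 NCs on a log2(reads + 1) scale with small random offsets, with dotted lines between 4 and 5 reads. Most of the 125 receptor-positive NCs (red, called members) lie along one axis or the other and 9 lie above both lines, while 153 NCs (blue) had 0 reads of both receptors.

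Most receptor-positive NCs carried 1 receptor. Of the 68 *CHRM2*-positive NCs, 13.2% were also *CHRM3*-positive (6.23 to 23.6), against 23.6% of *CHRM2*-negative NCs (18.4 to 29.4), and these intervals overlap. The shares were 6.67% and 23.1% in A951 and 16.0% and 23.1% in A952. With each cell thinned to 50000 reads they were 5.00% (2 of 40) and 15.1% (39 of 259). Of the other muscarinic genes, *CHRM4*, a second Gi-coupled receptor, and *CHRM5*, a Gq-coupled one, had a read in 0 of 310 NCs, which allows a share of cells with a read of up to 0.968% by a limit of 3 counts and says nothing of cells whose transcripts were missed. *CHRM1* was not among the genes counted.

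Outside NCs the receptors were rare. Among the 5364 other tagged cells, 0.130% were positive for *CHRM2* and 0.0746% for *CHRM3*, although their median depth of 198674 reads was close to the 186370.5 reads of NCs. After thinning to 50000 reads the shares were 13.4% of NCs and 0.0775% of other cells for *CHRM2*, and 13.7% and 0.0582% for *CHRM3*. At close depth the shares in NCs lay far above those in other cells of the same library. Of the 10 other cells that were receptor-positive, 8 had 5 or more reads of either *KRT19* or *TBXT* but not of both. That was 8 of 85 such cells (9.41%, 4.15 to 17.7), against 2 of 5279 cells with fewer than 5 reads of each (0.0379%, 0.00459 to 0.137).

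Receptor-positive NCs were sequenced more deeply than receptor-zero NCs. Their median was 229923 reads and 4420 genes per cell, against 154155 reads and 3692 genes. When cells were thinned to 50000 reads, which left out 2 receptor-positive and 9 receptor-zero NCs, medians of 2934 and 2684 genes remained. In A951 the medians were 193916 and 117833 reads, and in A952 they were 231311 and 178838. With NCs ranked by reads and divided into 4 bins, the receptor-positive share was higher in each deeper bin, from 24.4% (19 of 78) through 37.7% and 46.8% to 52.6% (41 of 78), and over 4 bins of genes detected it went from 21.8% (13.2 to 32.6) to 53.8% (42.2 to 65.2). Receptor-zero NCs that lack the receptors and those whose receptor transcripts were missed cannot be told apart. After thinning, 73 of 279 NCs, or 26.2%, were receptor-positive. The median share of mitochondrial reads was 1.29% and 1.37%. Values in 113 receptor-positive and 113 receptor-zero NCs matched on genes detected (medians 4284 and 4185 genes) are given below for some genes. Shares of cells printed without a matched or thinned value are not adjusted for depth.

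**Figure D2:**
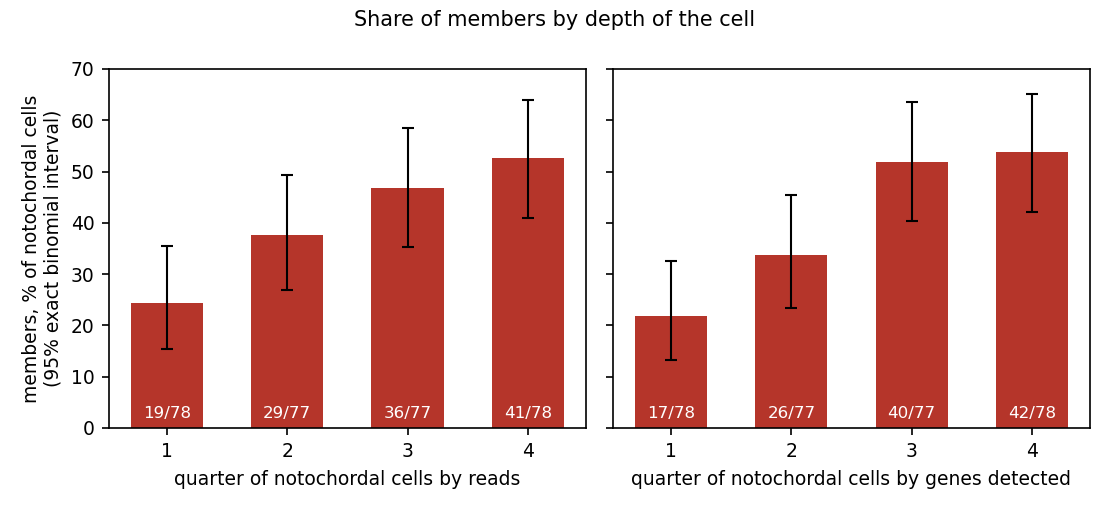
Receptor-positive NCs (members) as a percentage of NCs in 4 bins of reads per cell (left) and 4 bins of genes detected per cell (right), from shallow to deep, with 95% exact binomial intervals and counts in the bars. The share is lowest in the shallowest bin and highest in the deepest on both measures.

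The genes of the rule that both groups shared were at like levels. *KRT19* was at 1158 rpm (1146 to 1171) in receptor-positive and 1001 rpm (989.9 to 1013) in receptor-zero NCs, and *TBXT* at 929 (918 to 939.5) and 837 rpm (826 to 847). The log2 ratios were 0.21 and 0.15, and that of *TBXT* was -0.65 in A951 and 0.45 in A952. None of the 16 other notochordal genes that were detected well enough to be compared differed by 2-fold, and their median log2 ratio was 0.11, against 0.03 for all genes. Among them were *C3orf49* (2652 and 1765 rpm), the laminin-binding integrin *ITGA6* (186 and 113 rpm), the galectin *LGALS3* (7427 and 6742 rpm), the proteoglycan core protein *SRGN* (631 and 823 rpm) and the chondrogenic factor *SOX9* (1048 and 1219.7 rpm). *SHH* was at 93.9 and 107 rpm. Of 5 genes of the hedgehog pathway 0 differed by 2-fold, with *DISP1*, which releases the ligand, at 527 and 465 rpm and *HHAT*, which acylates it, at 194 and 148 rpm.

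Across genes, 6138 had 5 or more reads in at least 10% of the pooled receptor-positive and receptor-zero NCs. Of these, 209 (3.41%) were at least 2-fold higher in receptor-positive NCs and 143 (2.33%) at least 2-fold lower. Calls were concentrated in rarely detected genes. Among 3075 genes detected in 10% to 25% of cells, 175 were higher and 125 lower, and the SD of their log2 ratios was 0.609. Among 402 genes detected in at least 75% of cells, 3 were higher and 0 lower, with an SD of 0.259. Within the tags, 160 of the 209 higher genes and 110 of the 143 lower genes kept their direction in both A951 and A952, and 68 and 48 were past 2-fold in both. By the mean over cells of rpm, 136 of the 209 and 102 of the 143 were past 2-fold.

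**Figure D3:**
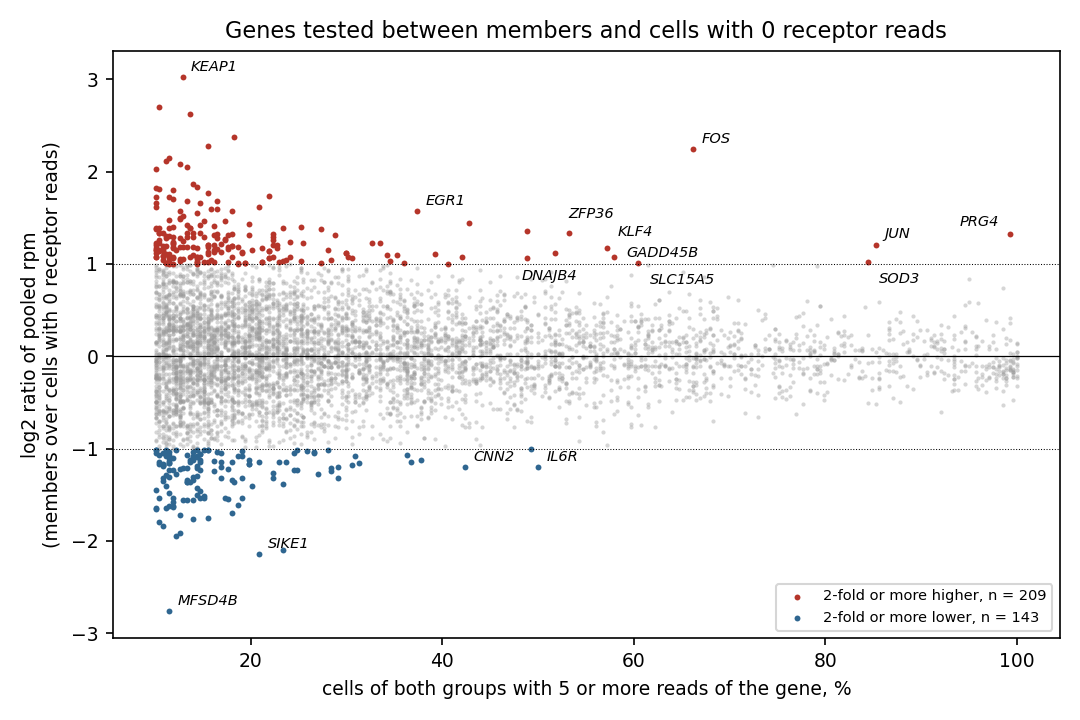
Log2 ratio of pooled rpm in receptor-positive (members) over receptor-zero NCs (y axis) against the percentage of these cells with 5 or more reads (x axis) for each of 6138 genes, with dotted lines at 2-fold. The scatter narrows as detection rises, and *FOS* (log2 ratio 2.24, detected in 66.2% of cells) stands above the genes of like detection.

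Among genes detected in at least 50% of the cells, 10 passed 2-fold, and these were named after their values were seen. The 9 higher genes were *FOS* (log2 ratio 2.24), *ZFP36* (1.34), *PRG4* (1.32), *JUN* (1.21), *KLF4* (1.17), *DNAJB4* (1.12), *GADD45B* (1.08), *SOD3* (1.02) and *SLC15A5* (1.01), and the lower one was *IL6R* (-1.20). *FOS* and *JUN* encode the subunits of the AP-1 transcription factor, *ZFP36* a protein that destabilises short-lived mRNAs, *KLF4* a zinc finger transcription factor and *GADD45B* a stress-induced signalling protein. *ZFP36* was at 829 and 327 rpm, *KLF4* at 669 and 298 rpm and *GADD45B* at 937 and 442 rpm, and each was higher in A951 and in A952. *KLF4* was below 2-fold in A952 (log2 ratio 0.94) and in cells matched on genes detected (0.96), and *GADD45B* in A951 (0.64). In the matched cells the positive shares were 61.1% and 62.8% for *KLF4*, 54.0% and 54.0% for *ZFP36*, and 66.4% and 50.4% for *GADD45B*. *PRG4* and *SOD3*, an extracellular superoxide dismutase, rested on few cells, since their medians per cell were nearly equal (171 and 174 rpm, and 64.0 and 60.1 rpm), and 1 cell held 32.2% of the *PRG4* reads of receptor-positive NCs. Without the cells of A953 and A954 the log2 ratio of *PRG4* was -0.26. *IL6R*, the interleukin-6 receptor, was at 168 and 388 rpm, but its log2 ratio was 0.21 in A951 and -1.26 in A952.

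Immediate early genes, which cells transcribe within minutes of a stimulus, were the listed group with the most genes past 2-fold. *FOS* was at 3674 rpm (3653 to 3695) in receptor-positive NCs and 778 rpm (768 to 788) in receptor-zero NCs. Over the 125 receptor-positive NCs it ranged from 0 to 26426 rpm with a median of 551, and over the 153 receptor-zero NCs from 0 to 17673 rpm with a median of 33.1. The upper quartiles were 4719 and 593 rpm, whereas the lower quartiles of 21.6 and 13.6 rpm lay near the median of 18.7 rpm in other tagged cells. Both groups thus held cells with little *FOS* and their ranges overlapped. The groups differed more at the median and the upper quartile than at the lower quartile. *FOS* had 5 or more reads in 76.8% of receptor-positive NCs (68.4 to 83.9) and 57.5% of receptor-zero NCs (49.3 to 65.5), and after thinning in 64.2% and 40.3%. The 32 NCs with 1 to 4 receptor reads had 1979 rpm of *FOS*, but not all immediate early genes lay between the groups in these cells. *EGR1* had 5 or more reads in 21.9% of them and 28.1% of receptor-zero NCs, and *JUN* in 68.8% and 83.0%. In the same order, pooled levels were 276 and 158 rpm for *EGR1*, 2216 and 1908 rpm for *JUN* and 4.83 and 21.6 rpm for *EGR2*.

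*EGR1*, a zinc finger factor induced by growth signals, was at 470.4 and 158 rpm and was found in 48.8% (39.8 to 57.9) and 28.1% (21.1 to 35.9) of cells. Its median per cell was 17.4 and 2.28 rpm, and its upper quartile 363 and 24.4 rpm. *JUN* was at 4409.6 and 1908 rpm, with medians per cell of 1129 and 635 rpm and shares of 88.0% (81.0 to 93.1) and 83.0% (76.1 to 88.6), which overlap. *EGR2*, a relative of *EGR1*, was at 54.6 and 21.6 rpm, with overlapping shares of 13.6% (8.13 to 20.9) and 8.50% (4.60 to 14.1) and medians per cell of 0 in both groups. These 4 of the 12 immediate early genes compared were past 2-fold and 0 were lower, beside the 3.41% and 2.33% of all genes. The median log2 ratio of the 12 was 0.70, against 0.03 for all genes. The nuclear receptors *NR4A1* (log2 ratio 0.93), *NR4A2* (0.60) and *NR4A3* (0.70) and the AP-1 gene *FOSB* (0.69) were higher by less than 2-fold, while *FOSL1* (-0.68), *IER3* (-0.27) and *FOSL2* (-0.19) were below 0. The *MYC* ratio was 0.12.

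The 4 genes were past 2-fold in both tags. *FOS* had log2 ratios of 1.92 in A951 and 2.45 in A952, *EGR1* 2.53 and 1.35, *EGR2* 2.15 and 1.20 (in A951 from 3 of 27 and 3 of 35 positive cells), and *JUN* 1.59 and 1.18. In cells matched on genes detected, whose median reads still differed (217908 and 200074), the ratios were 2.28, 1.44, 1.36 and 1.17. In 107 cells per group matched on reads they were 2.52, 1.66, 1.31 and 1.25, so each was past 2-fold under either match. Of the 12 genes, a receptor-positive NC had a mean of 5.66 detected and a receptor-zero NC 4.90, and after thinning 4.70 and 3.92, but the medians were equal, at 5 and 5, and after thinning 4 and 4. In A952 the medians were 5 and 5.5, and in A951 5 and 2. Their summed level had a median of 4797 rpm per receptor-positive NC (31.5 to 54798) and 3275 rpm per receptor-zero NC (0 to 42816). Other early response genes, chosen after their values were seen, were the phosphatase *DUSP1* (584 and 318 rpm) and the chromatin reader *BRD2* (745 and 378 rpm).

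**Figure D4:**
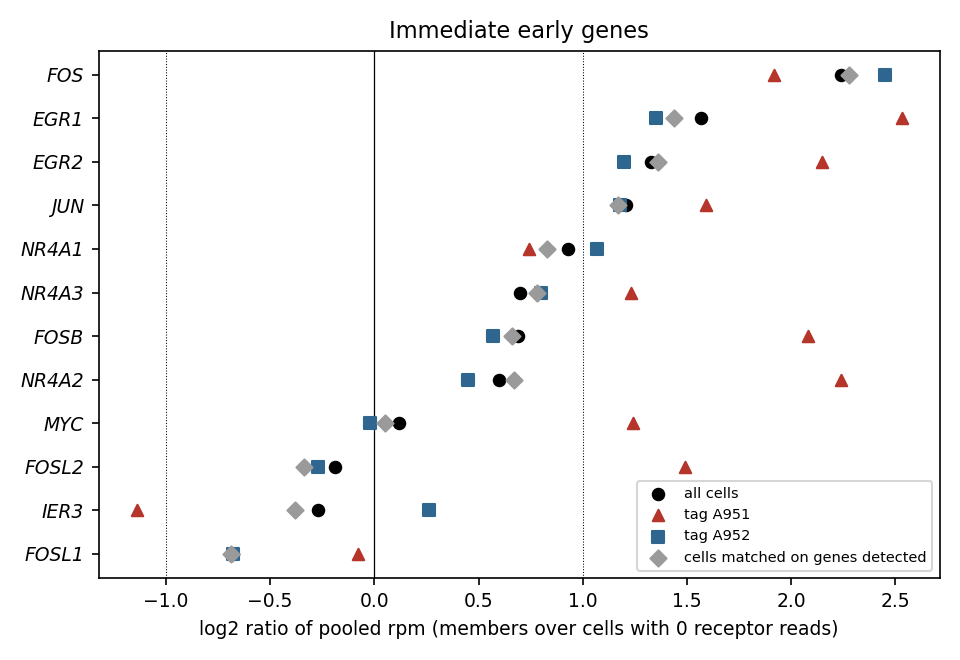
Log2 ratio of pooled rpm in receptor-positive (members) over receptor-zero NCs for 12 immediate early genes, in all cells, within tags A951 and A952 and in 113 cells per group matched on genes detected, with dotted lines at 2-fold. *FOS*, *EGR1*, *EGR2* and *JUN* lie beyond 2-fold in each of the 4 sets of cells, while *FOSL1*, *IER3* and *FOSL2* change side or stay below 0.

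Of 9 heat shock genes compared, 8 had a log2 ratio above 0, with a median of 0.55 against 0.03 for all genes. A single one was past 2-fold, beside 3.41% of all genes. *DNAJB4*, a cochaperone of HSP70, was at 349 and 161 rpm and was found in 65.6% (56.6 to 73.9) and 40.5% (32.7 to 48.7) of cells, with log2 ratios of 1.10 in A951, 1.19 in A952 and 1.13 in cells matched on genes detected. *HSPH1*, a nucleotide exchange factor of HSP70 that was singled out after its values were seen, had a log2 ratio of 0.99 (1211 and 610.3 rpm), *DNAJB1* 0.61 and *BAG3* 0.55. The abundant chaperone *HSP90AA1* was at 3669.8 and 3801 rpm. Over all 9 genes the summed level was 9901 rpm in receptor-positive NCs, 8174 rpm in receptor-zero NCs and 6169 rpm in other cells.

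Neuronal genes of acetylcholine synthesis and release were hardly read in either group, whereas choline transporters were. *CHAT*, which makes acetylcholine, *SLC18A3*, which loads it into vesicles, and *SLC5A7*, which takes up choline at nerve endings, had 5 or more reads in 0 receptor-positive NCs and 0 receptor-zero NCs. *ACHE*, which breaks acetylcholine down, did so in 1 and 2 cells. Of the 11 genes counted in this list, 6 had 5 or more reads in a receptor-positive NC. The choline transporters *SLC44A1* (295 and 261 rpm) and *SLC44A2* (613 and 496 rpm) and the choline kinase *CHKA* (72.1 and 50.9 rpm) were compared, and 0 of these 3 differed by 2-fold. Of 13 nicotinic receptor subunits counted, none was detected often enough to compare, and *CHRNB1*, the subunit with most reads, was at 7.48 and 7.99 rpm. Of 48 other Gq- or Gi-coupled receptors counted, 1 was compared, the prostaglandin receptor *PTGER3*, found in 25.6% and 12.4% of cells at 54.1 and 39.5 rpm.

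Of the components downstream of the receptors, those detected often enough were compared, and 0 of these passed 2-fold. Of 11 genes compared of the 21 counted in the Gq and phospholipase C list, 0 were higher and 0 lower, 10 had a ratio below 0, and the median was -0.33. Within the tags the median was -0.80 in A951 and -0.20 in A952. The inositol trisphosphate receptor *ITPR3* was at 404 and 532 rpm and found in 84.8% and 67.3% of cells. It was at 206 and 466 rpm in A951, which is past 2-fold, and at 483 and 553 rpm in A952. The phospholipase *PLCB1* was at 71.6 and 65.5 rpm, the Gq family subunit *GNA14* at 56.6 and 56.7 rpm and protein kinase C alpha *PRKCA* at 108 and 143 rpm. *GNAQ* itself was below the detection limit for comparison, with 14 and 8 positive cells. Of 13 genes of stored and store-operated calcium, 0 passed 2-fold and the median was 0.08. *CALM3*, a calmodulin, was at 158 and 87.1 rpm (log2 ratio 0.86), the calcium sensor *STIM1* at 105 and 79.7 rpm, the calcium pump *ATP2A2* at 107 and 105 rpm, and the calcineurin-dependent factor *NFATC1* at 296 and 574 rpm (-0.96), although its ratio was 0.32 in A951.

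On the Gi side, 0 of 15 genes compared of 28 counted passed 2-fold and the median was -0.02. The inhibitory subunit *GNAI2* was at 892 and 849.6 rpm and found in 99.2% and 89.5% of cells. *GNAI1* was found in 53.6% of receptor-positive NCs (44.5 to 62.6) and 30.1% of receptor-zero NCs (22.9 to 38.0), at 127 and 94.7 rpm, but its log2 ratio was -0.62 in A951 and 0.93 in A952. The beta subunit *GNB4* was at 111 and 58.0 rpm (0.94 in all cells, 0.31 in A951 and 1.18 in A952). Of the potassium channels under muscarinic control, the M-current genes *KCNQ1* (15.1 and 11.7 rpm) and *KCNQ3* (37.9 and 32.4 rpm) were compared and 0 passed 2-fold. The GIRK genes *KCNJ3* and *KCNJ5* had 5 or more reads in 0 cells of both groups. Of 5 RGS and receptor kinase genes, which end G protein signals, 0 passed 2-fold. *RGS16* was at 49.8 and 26.6 rpm and *RGS2* at 82.5 and 130.3 rpm.

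**Figure D5:**
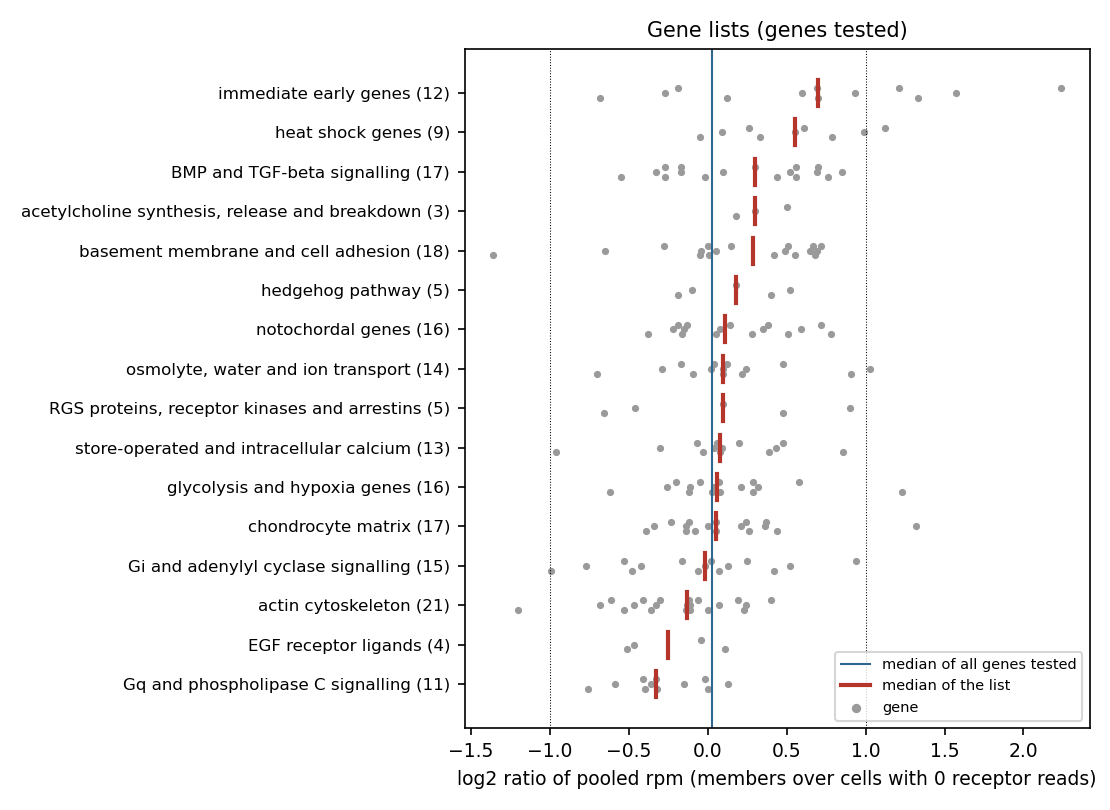
Log2 ratio of pooled rpm in receptor-positive (members) over receptor-zero NCs for each gene of 16 lists with at least 3 genes compared (grey points, number of genes in brackets), with the median of each list (red) and of all genes (blue). Immediate early genes (median 0.70) and heat shock genes (0.55) lie farthest to the right, and the Gq and phospholipase C list (-0.33) farthest to the left.

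Cytoplasmic actin differed in opposite directions by median between the tags. Pooled over all cells, *ACTB* was at 5899 and 8506 rpm, with medians per cell of 2977 and 7179 rpm, and *ACTG1* at 6604 and 9158 rpm, with medians of 4010.2 and 7805 rpm. The quartiles of the groups overlapped (1129 to 8905 and 1927 to 12669 rpm for *ACTB*). The log2 ratios were -0.53 and -0.47 in all cells, -0.52 and -0.46 in A952, and -0.16 and -0.23 in A951. The medians per cell were lower in receptor-positive NCs of A952 (2977 and 9059 rpm for *ACTB*, 3617 and 9267 rpm for *ACTG1*) but higher in those of A951 (2996 and 1829 rpm, and 4147 and 2121 rpm). Of 21 genes of the actin cytoskeleton, 16 had a ratio below 0, and the median was -0.13, against 0.03 for all genes, with 0.04 in A951 and -0.12 in A952. The 1 gene past 2-fold, beside 2.33% of all genes, was the actin-binding calponin *CNN2* (109 and 250.2 rpm, log2 ratio -1.20), with -0.13 in A951 and -1.31 in A952.

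Adhesion genes differed little. Of 18 genes of basement membrane and adhesion, 13 had a ratio above 0, with a median of 0.29. The desmosomal genes *PKP2* (219.5 and 136 rpm) and *DSP* (709 and 529 rpm) had ratios of 0.69 and 0.42. *GJA1*, which forms connexin 43 gap junctions and was chosen after its values were seen, was found in 99.2% and 91.5% of cells with medians of 1171 and 632 rpm per cell and a log2 ratio of 0.84, though 0.24 in A951. Of 17 cartilage matrix genes *PRG4* alone passed 2-fold, as described above.

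Among 14 genes of osmolyte, water and ion transport, the mechanosensitive potassium channel *KCNK2* passed 2-fold, at 95.5 and 46.7 rpm and in 43.2% (34.4 to 52.4) and 27.5% (20.6 to 35.2) of cells, with log2 ratios of 0.29 in A951 and 1.32 in A952. The sodium, potassium and chloride cotransporter *SLC12A2*, a gene of this list singled out after its values were seen and found in 6.30% of other tagged cells, was in 73.6% and 58.2% of cells at 454 and 242 rpm (0.91), with 0.00 in A951 and 1.20 in A952. The water channel *AQP3* was at 413 and 673 rpm. Of 16 genes of glycolysis and hypoxia, 1 passed 2-fold, the vasoactive peptide *ADM* (135 and 57.8 rpm, log2 ratio 1.23), with 0.88 in A951 and 1.52 in A952, while glycolytic *ENO1* (1594 and 1565 rpm) and *LDHA* (342 and 325 rpm) were level. Of 17 genes of BMP and TGF-beta signalling 0 passed 2-fold. Of 4 EGF receptor ligands 0 did, with *HBEGF* at 459 and 635 rpm and *AREG* at 287 and 409 rpm. The replication clamp *PCNA*, the single proliferation gene detected often enough, was at 79.2 and 71.0 rpm. Over the 28 lists, 8 of 197 genes compared were higher and 2 lower, beside 3.41% and 2.33% of all genes.

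Genes with the largest ratios were mostly detected in few cells. The 12 higher genes were chosen for at least 2-fold in pooled rpm and in the mean over cells, the same direction in A951 and A952, and no cell with over 25% of the reads. *KEAP1*, which targets the antioxidant factor NRF2 for degradation, led them with 45.4 rpm (43.1 to 47.8) against 5.61 rpm (4.79 to 6.54) and 22.4% (15.4 to 30.7) against 5.23% (2.28 to 10.0) of cells. Its log2 ratio was 3.02 in all cells, 3.96 in A951, 2.48 in A952 and 3.08 in cells matched on genes detected. Other tagged cells had 58.7 rpm of *KEAP1* and the 32 NCs with 1 to 4 receptor reads had 45.6 rpm, so receptor-zero NCs were the group that stood low. The xylulokinase *XYLB* (42.5 and 6.53 rpm), the lysosome transport adaptor *PLEKHM2* (78.7 and 12.8 rpm), the Rab prenylation subunit *RABGGTA* (59.6 and 12.2 rpm), *ENOSF1* (106 and 20.3 rpm), the heparan sulfate sulfotransferase *HS2ST1* (39.4 and 9.66 rpm) and *FOS* followed. The rest were the cyclic AMP phosphodiesterase *PDE8A* (60.1 rpm, log2 ratio 1.83), the PDZ scaffold *GRIP2* (84.1 and 24.7 rpm), *LCORL* (48.5 and 10.9 rpm), the mRNA deadenylation subunit *CNOT3* (52.2 and 16.3 rpm) and *HCFC2* (48.6 and 11.8 rpm). In A951 *HS2ST1*, *GRIP2* and *LCORL* were below 2-fold, with log2 ratios of 0.38, 0.43 and 0.66 against 3.26, 2.52 and 2.80 in A952. Apart from *FOS*, the 12 genes were found in 16.8% to 26.4% of receptor-positive NCs and in 3.92% to 11.8% of receptor-zero NCs.

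The 12 lower genes by the same choice had log2 ratios from -2.76 to -1.54. *MFSD4B*, a membrane transporter, was at 6.44 rpm (5.58 to 7.41) and 43.7 rpm (41.4 to 46.2) and was found in 8 of 125 (2.80% to 12.2%) and 24 of 153 (10.3% to 22.4%) cells. *SIKE1*, which restrains innate immune kinases, was at 15.5 and 68.2 rpm and found in 15.2% and 25.5% of cells. Others were *H6PD*, which makes NADPH in the endoplasmic reticulum (9.36 and 33.5 rpm), *TMEM255B* (19.9 and 66.6 rpm), the ribokinase *RBKS* (29.8 and 96.9 rpm), the centrosomal *CEP19* (15.7 and 47.0 rpm), *GHDC* (31.3 and 95.2 rpm), the inositol phosphatase *SYNJ2* (12.1 and 38.1 rpm), *RAB24* (18.3 and 53.9 rpm), *LDLRAD3* (24.3 and 70.5 rpm) and the nuclear pore gene *AAAS* (15.9 and 46.9 rpm). *RAB24* was below 2-fold in A952, with a log2 ratio of -0.87 against -2.80 in A951. The shares of positive cells of the 12 genes were at most 15.2% in receptor-positive NCs and between 12.4% and 25.5% in receptor-zero NCs.

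NCs positive for *CHRM2* only and for *CHRM3* only were then set against each other. The 59 and 57 cells had medians of 233866 and 217957 reads and 4447 and 4394 genes, so their depth was close. Of 6479 genes compared, 523 (8.07%) were at least 2-fold higher in *CHRM2*-only and 475 (7.33%) in *CHRM3*-only NCs, and 400 and 396 of these lay among genes detected in under 25% of the cells, where the SD of the log2 ratios was 0.925. The notochordal genes were at like levels, with *KRT19* at 979 and 1298 rpm, *TBXT* at 836 and 991 rpm and *SHH* at 85.6 and 104 rpm (18.6% and 26.3% of cells). *FOS* was at 3609 and 3808 rpm, *JUN* at 4931 and 4117 rpm and *EGR1* at 497 and 487 rpm, so these levels were close in both sets. In the 9 NCs with both receptors *FOS* was at 3269.8 rpm and *JUN* at 2762 rpm, whereas *EGR1* was at 188 rpm and *EGR2* at 13.9 rpm, near or below the receptor-zero levels. *ACTB* was at 5601 and 6286 rpm. Of 17 cartilage matrix genes, 4 were past 2-fold toward *CHRM2*-only NCs (*COL2A1*, *COL9A1*, *BGN* and *PRG4*) and 2 toward *CHRM3*-only NCs (*COL6A3* and *CRTAC1*), and of 17 adhesion genes 3 and 2 were, beside the 8.07% and 7.33% of all genes. *COL2A1* was at 1953 and 848 rpm, but its medians per cell were 429 and 430.3 rpm and its log2 ratio, 1.20 in all cells, was -0.95 in A951. In that tag *BGN* (1.32 in all cells) was at -0.47 and *CRTAC1* (-1.93) at 0.85. *COL9A1*, *PRG4* and *COL6A3* kept their direction in both tags, though *COL9A1* was at 0.22 in A951. Medians per cell were nearly equal for *COL9A1* (72.5 and 69.3 rpm) and *PRG4* (168 and 177 rpm), but were 13.6 and 127 rpm for *COL6A3*. A single cell held 39.9% of the *PRG4* reads of *CHRM2*-only NCs, and another 58.4% of the *CRTAC1* reads of *CHRM3*-only NCs.

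Of 11 Gq and phospholipase C genes compared, 1 was past 2-fold in each direction, beside 8.07% and 7.33% of all genes, and the median log2 ratio of *CHRM2*-only over *CHRM3*-only was -0.44, against 0.01 for all genes. Of 16 Gi and adenylyl cyclase genes 0 were past 2-fold, and the median was 0.02. *GNAI1* was at 123 and 128 rpm, *GNAI2* at 829 and 929.7 rpm and *GNAI3* at 82.1 and 70.6 rpm in *CHRM2*-only and *CHRM3*-only NCs. *GNAQ* was at 33.7 and 22.9 rpm, found in 13.6% and 7.02% of cells. *PLCB1* was past 2-fold toward *CHRM3*-only NCs, at 45.5 and 92.5 rpm (log2 ratio -1.02, with -2.52 in A951 and -0.62 in A952), with 32.2% and 36.8% of cells positive. The diacylglycerol kinase *DGKD* was past 2-fold toward *CHRM2*-only NCs, at 35.6 and 12.4 rpm (1.52, with 4.29 in A951 and 0.37 in A952), with 18.6% and 10.5% of cells positive. By the choice described above, the leading genes of *CHRM2*-only NCs were the lysophospholipid acyltransferase *MBOAT2* (33.5 and 3.68 rpm), the transcription kinase *CDK7* (51.2 and 5.99 rpm), the semaphorin receptor *PLXNA3* (123 and 20.8 rpm), the JNK kinase *MAPK9* (23.4 and 3.97 rpm) and the sorting nexin *SNX15* (66.8 and 11.8 rpm). Those of *CHRM3*-only NCs were the mitochondrial ribosomal *MRPL46* (4.33 and 59.5 rpm), the peroxisomal *CROT* (2.70 and 47.5 rpm), the RNA-binding *ATXN2* (17.6 and 107 rpm), the netrin receptor *NEO1* (5.81 and 33.3 rpm) and *POLDIP2* (19.1 and 100 rpm). Each was found in 38.6% or fewer of the cells of either set.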

How the data were processed

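Cells of AC and NP were sequenced in 1 pooled TAS-seq library. Reads were mapped by the authors with HISAT2 2.2.1 to a cynomolgus genome (build not given in the sources used here). They assigned them to whole genes with featureCounts 2.0.2, allowing reads that fit several genes, and the deposited values are counts, whole numbers of reads for each gene in each cell, with no normalization or molecular identifiers. Near-identical genes can share reads. Of 5723 cell columns, 42 tag doublets and 7 untagged columns were left out, and no doublet caller was run within tags. A second matrix of 1358 columns, which matches no listed sample, was not used.

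Groups were formed by the read rule, with no limit on depth. Reads of a group were pooled as rpm, and a group with under 3 reads of a gene was set to 3. Genes with 5 or more reads in at least 10% of compared cells were tested, and 2-fold counted as a call. Genes named were those of the rule, the listed genes, and 12 genes each way (5 for the receptor subsets) ranked by the smaller log2 ratio of pooled rpm and mean rpm over cells, given agreement within tags and no cell over 25% of reads. As alternatives, other read minimums, gene filters, scalings, single tags or receptors were tried, and cells were thinned to 50000 reads or matched on genes or reads within 0.1 log2. A few genes are not reported here. The members, lists and tests were chosen with earlier results of these data known. Python 3.11.15, numpy 2.4.6, scipy 1.17.1, pandas 2.3.3 and matplotlib 3.10.9 were used, and the ratios were tested on simulated data. The depth was 24907 to 1649566 reads per tagged cell.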

Additional observations from a re-analysis of the deposited data

How the results depend on the processing

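The number of receptor-positive NCs stayed between 98 and 157 under other read minimums, the study's limits on cells or without A953 and A954, and fell to 73 with cells thinned to 50000 reads. The counts of higher and lower genes depended strongly on settings. They were 503 and 359 at detection in 5% of cells, 57 and 31 at 20%, 1751 and 1625 with no filter beyond 3 reads, 131 and 88 with thinned cells, 320 and 215 in cells matched on genes, 339 and 242 in A952 alone, and 764 and 927 in A951 alone. Matching on reads gave 352 higher genes. The lower genes numbered 237 by the mean over cells, 6 by the ratio of shares, 279 for *CHRM2* alone and 304 for *CHRM3* alone. Of the listed genes past 2-fold in either direction, 10 in all, the count was 16 by the mean over cells, 0 by shares at 1 read, 53 within A951 and 18 within A952. Size factors from the median ratio gave 262 higher and 114 lower genes. Of 45 single genes followed through 15 alternatives, 43 reversed under none of them. The 12 higher and 12 lower named genes are among the 45. They were chosen for agreement within both tags and 2-fold by the mean over cells, so those alternatives could not reverse them. *PRG4* reversed in A951 (-2.72), for *CHRM3* alone (-0.11) and without A953 and A954 (-0.26, an alternative chosen after seeing the data), and *IL6R* by shares (0.19) and in A951 (0.21). The causes were not tested. No paired analysis was possible because the library is 1 sample. With 1 library no difference has a replicate check, and reads are not molecules, so intervals understate the error.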
